A study of Homo sapiens with 9 samples.

Results

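The EGF family ligands and their receptors other than ERBB2 were described in SKOV3, a line grown from a human ovarian cancer and known for its extra copies of ERBB2. The 10 members were taken by gene symbol from the deposited table of 36785 genes: the receptors EGFR, ERBB3 and ERBB4, and the ligands AREG, EREG, HBEGF, TGFA, BTC, EPGN and NRG1. All cells had received lentivirus. The control libraries, shNC, carry the genotype NC, and the libraries sh1 and sh3 are labelled as knockdowns 1 and 3 of STXBP6, which encodes amisyn, a protein that binds the SNARE complex of regulated exocytosis. There were 3 libraries in each of the 3 groups, and no label says whether they came from separate cultures, so p-values speak only of the spread among libraries, which may be technical.

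The ERBB receptors are receptor tyrosine kinases that pair with each other when a ligand binds. Their ligands are made as membrane-anchored precursors and are released by metalloproteases, chiefly ADAM17 and ADAM10. Amphiregulin (AREG), transforming growth factor alpha (TGFA) and epigen (EPGN) act through EGFR, heparin-binding EGF (HBEGF), betacellulin (BTC) and epiregulin (EREG) act through EGFR and ERBB4, and neuregulin 1 (NRG1) acts through ERBB3 and ERBB4. ERBB2 binds no known ligand and serves as the preferred partner of the others, and ERBB3, whose kinase is weak, signals through such pairs.

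Messenger RNA was measured by poly(A)-selected sequencing, with 57654447 to 69264400 counts per library. CPM, counts scaled to a common total after TMM normalization, compare 1 gene between libraries, and the deposited FPKM, which also divide by gene length, compare genes. Targeting could not be checked from STXBP6 itself, which held 4, 0 and 15 counts in shNC, 7, 4 and 26 in sh1 and 20, 31 and 18 in sh3. Its log2 changes against shNC were 0.87 ± 1.02 and 1.81 ± 1.01 (SE, adjusted p = 0.56 and 0.23, edgeR), and the latter became 3.54 when shNC replicate 3 was left out (adjusted p = 0.046). Every direction given for sh1 or sh3 therefore rests on the labels alone. Of 10 epithelial and ovarian markers, 9 reached 1 FPKM in some library, PAX8 at 26.5 to 61.1 and KRT8 at 94.6 to 154 FPKM among them, while the epithelial cadherin CDH1 stayed at or under 0.418 FPKM. Their sum, mostly ERBB2, was 1137 to 1239 FPKM with shNC, 723 to 753 with sh1 and 1150 to 1196 with sh3. ERBB2 alone stood at 836 to 953, 485 to 519.9 and 831 to 877 FPKM in the same order. The pan-leukocyte gene PTPRC was at most 0.00297 FPKM and the endothelial gene VWF at most 0.0376 FPKM. Under 1 FPKM in every library were 3 of 4 leukocyte markers in the table, 3 of 5 fibroblast markers and 4 of 5 endothelial markers. The summed endothelial markers, mostly KDR, ran from 1.94 to 2.21 FPKM for shNC, 0.963 to 1.11 in sh1 and 2.68 to 2.89 in sh3, the summed leukocyte markers, mostly the lysosomal CD68, from 13.7 to 15.0, 10.4 to 11.2 and 17.5 to 18.6, and the summed fibroblast markers from 13.1 to 16.9, 15.5 to 16.1 and 10.5 to 11.3. That last sum joins the collagen gene COL1A1, at 4.51 to 5.67, 8.58 to 8.93 and 6.99 to 7.03 FPKM in the same order of groups, and the proteoglycan gene LUM, at 8.00 to 10.6, 6.49 to 7.25 and 3.17 to 3.77 FPKM. Their part in the results below was not tested, and in bulk RNA fewer cells of a type and less RNA per cell cannot be told apart.

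RefSeq windows (GRCh38.p14) were found for 8 of the 10 members, and not for ERBB3 and NRG1. The 250 bases before the start site are shown for the ligand genes HBEGF, which rose with sh1, EREG and BTC, which fell, and AREG, the neighbour of EREG on chromosome 4. In each the RefSeq start equals the gene's start in the deposited table. They lie at chr5:140346604-140346853 (minus strand), chr4:74364895-74365144 (plus), chr4:74444886-74445135 (plus) and chr4:74794524-74794773 (minus). Capitals mark matches on either strand. The TATA box was searched as TATAAA and the GC box, which the factor SP1 binds, as GGGCGG. The letters of the cyclic AMP response element, CRE, were TGACGTCA and those of the AP-1 element were TGANTCA.
HBEGF: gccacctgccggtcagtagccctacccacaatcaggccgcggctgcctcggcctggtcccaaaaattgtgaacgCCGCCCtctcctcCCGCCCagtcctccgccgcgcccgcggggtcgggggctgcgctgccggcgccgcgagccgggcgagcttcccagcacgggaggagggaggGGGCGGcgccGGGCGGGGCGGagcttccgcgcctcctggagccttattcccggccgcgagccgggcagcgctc
EREG: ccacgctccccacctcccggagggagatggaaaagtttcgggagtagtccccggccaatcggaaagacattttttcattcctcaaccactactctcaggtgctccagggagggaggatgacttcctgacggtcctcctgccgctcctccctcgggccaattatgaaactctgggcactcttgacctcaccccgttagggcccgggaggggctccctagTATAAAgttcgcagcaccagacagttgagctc
AREG: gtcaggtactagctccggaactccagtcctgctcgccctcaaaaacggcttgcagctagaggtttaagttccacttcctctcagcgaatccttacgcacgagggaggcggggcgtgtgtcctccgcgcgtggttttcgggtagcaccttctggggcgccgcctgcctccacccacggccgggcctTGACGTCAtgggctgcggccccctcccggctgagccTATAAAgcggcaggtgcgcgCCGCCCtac
BTC: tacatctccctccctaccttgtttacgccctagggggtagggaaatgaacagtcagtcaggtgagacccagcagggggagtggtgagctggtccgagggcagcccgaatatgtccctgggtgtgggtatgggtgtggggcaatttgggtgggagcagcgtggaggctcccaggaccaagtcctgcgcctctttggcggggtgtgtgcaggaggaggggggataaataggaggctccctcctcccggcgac
The HBEGF window held 5 GC boxes, of which the last pair share a base, and none of the other 3 motifs. EREG held a TATA box 32 to 27 bases before its start, and AREG held a TATA box at 29 to 24 bases and a CRE at 65 to 58 bases, with 1 GC box. The BTC window held no match to these letters. Among all 35116 windows of this length, 10.7% held a TATA box, 1.65% a CRE, 6.57% an AP-1 match and 42.6% a GC box. A match is a run of letters and says nothing of binding in these cells.

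EGFR and TGFA were the most abundant members in every group. In shNC the order by mean FPKM was EGFR (14.4 ± 1.88, SD, n = 3), TGFA (8.67 ± 0.167), HBEGF (2.00 ± 0.135), BTC (1.82 ± 0.0741), NRG1 (0.830 ± 0.0742), EREG (0.564 ± 0.0459), AREG (0.560 ± 0.0739), ERBB4 (0.124 ± 0.0279), ERBB3 (0.118 ± 0.0140) and EPGN (0.0117 ± 0.0102). HBEGF and BTC, EREG and AREG, and ERBB4 and ERBB3 overlapped as neighbours in that order, and the other neighbours did not. In sh1 NRG1 stood next after HBEGF at 2.48 ± 0.109 FPKM, above BTC at 0.886 ± 0.237, and no neighbours overlapped. In sh3 AREG stood above EREG and ERBB3 above ERBB4, with overlap between NRG1 and AREG and between AREG and EREG.

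**Figure D1:**
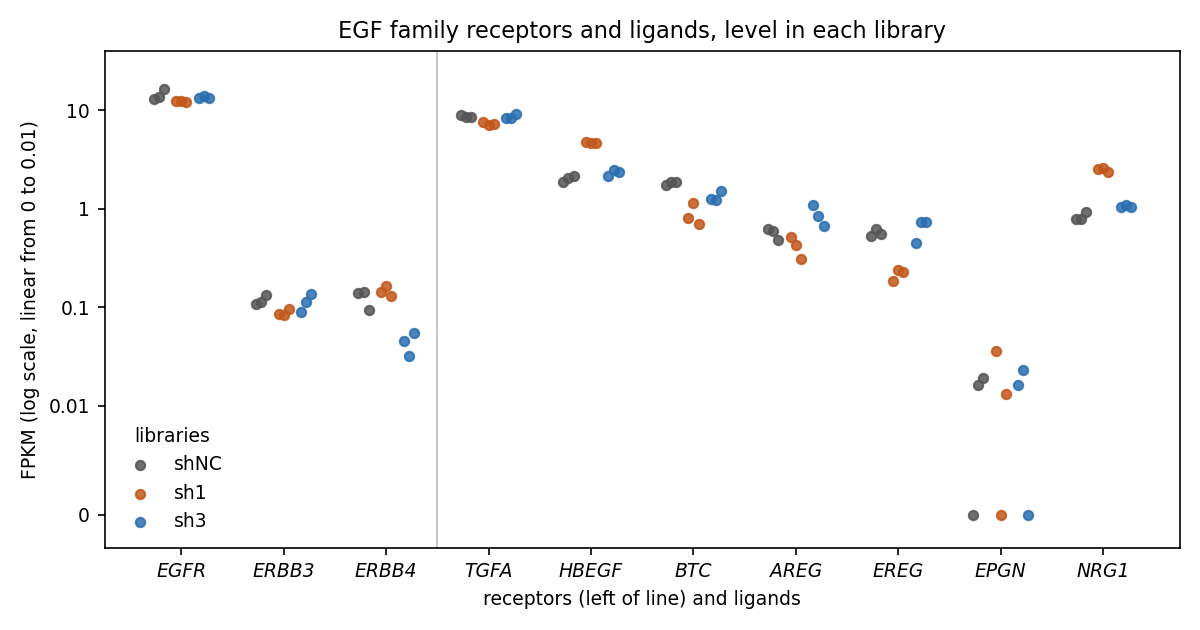
FPKM of the 10 members (vertical axis, log scale above 0.01 FPKM and linear below) in each library, by gene, with shNC in grey, sh1 in orange and sh3 in blue. EGFR and TGFA lie highest, ERBB3 and ERBB4 lie at or under 0.163 FPKM in all 9 libraries, and EPGN is at 0 in 1 library of each group.

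In the comparison of sh1 with shNC 2 of 9 tested members were higher and 3 lower (edgeR quasi-likelihood test, Benjamini-Hochberg adjusted p under 0.05), all of them ligands. The shares called among all 21296 tested genes were 19.9% higher and 18.8% lower, 38.7% in either direction, against 55.6% of the tested members. The median absolute log2 change was 0.39 over the tested members and 0.30 over all tested genes. In the comparison of sh3 with shNC 1 member was higher and 1 lower, 22.2% of the tested members, where 14.4% of all genes were called higher and 12.4% lower, 26.9% in either direction. That share is near the background. Both comparisons use the same 3 shNC libraries. The 3 sh1 values lay wholly above the shNC values for 2 tested members and wholly below for 5, where 24.6% of all genes lay above, 25.3% below and 49.9% on either side. For sh3 the counts were 3 above and 2 below, where 20.8% of all genes lay above, 19.8% below and 40.5% on either side.

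**Figure D2:**
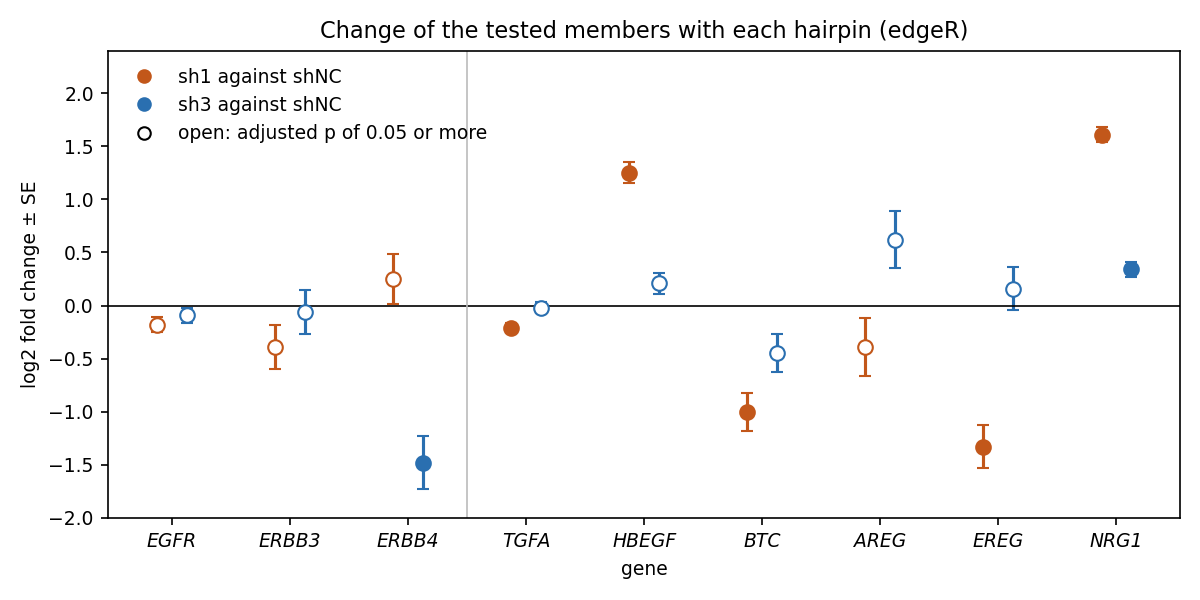
Log2 fold change against shNC with its SE (vertical axis) for the 9 tested members, sh1 in orange and sh3 in blue, filled where the adjusted p was under 0.05. NRG1 and HBEGF lie highest with sh1, EREG and BTC lowest, and ERBB4 lies lowest with sh3 at -1.48.

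Among the receptors, EGFR showed small differences. Its level was 223, 233 and 285 CPM for shNC, 218, 219.8 and 216 in sh1 and 229, 238 and 229 in sh3. Replicate 3 stood highest in shNC, and all sh1 values were below all shNC values. The sh1 change was -0.18 ± 0.07 on the log2 scale (SE, adjusted p = 0.061, edgeR), and the call depended on the setting, with adjusted p = 0.027 under library totals, 0.014 without shNC replicate 1 and 0.048 without shNC replicate 2 (range 0.014 to 0.16). Without shNC replicate 3 the sh1 change shrank to -0.07 (adjusted p = 0.1). The sh3 change was -0.09 ± 0.07 (SE, adjusted p = 0.40), and 0.02 without shNC replicate 3. The antisense gene EGFR-AS1 overlaps EGFR and averaged 0.234 CPM against 232 for EGFR.

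ERBB4, the receptor that binds both neuregulins and several EGFR ligands, was scarce and fell with sh3. It held 131, 135 and 77 counts in shNC, 124, 136 and 130 in sh1 and 44, 28 and 48 in sh3, which is 1.76 ± 0.384, 2.1 ± 0.226 and 0.632 ± 0.160 CPM (SD over 3 libraries). Every sh3 library was below every library of the other groups. The sh3 change was -1.48 ± 0.25 in log2 CPM, 2.78-fold lower (SE, adjusted p = 0.0010, edgeR, range 7.5e-06 to 0.023 over 16 alternatives), and sh1 was 0.25 ± 0.24 (adjusted p = 0.46). For its lowest library, 28 counts, the exact 95% Poisson interval is 18.6 to 40.5 counts, an allowance for counting error alone, as molecules copied by PCR are not counted apart.

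ERBB3, the receptor of neuregulins with a weak kinase, stood at 1.41, 1.48 and 1.76 CPM for shNC, 1.15, 1.12 and 1.26 in sh1 and 1.17, 1.51 and 1.78 in sh3. All sh1 values lay below the shNC values, while sh3 and shNC overlapped. The changes were -0.39 ± 0.21 with sh1 and -0.06 ± 0.21 with sh3 (SE, adjusted p = 0.18 and 0.89, edgeR). The sh3 value was 0.04 without shNC replicate 3 and 0.09 without sh3 replicate 1. ERBB2, their partner, stood at 910.1 ± 64.6 FPKM for shNC, 500.4 ± 17.8 in sh1 and 853 ± 22.6 in sh3 (SD over 3 libraries). Its sh1 change was -0.83 ± 0.04 (SE, adjusted p = 4.9e-08, edgeR) and its sh3 change -0.09 ± 0.04 (adjusted p = 0.16, and 0.0010 without shNC replicate 3). By FPKM it exceeded EGFR 50.6- to 72.4-fold in shNC, 39.7- to 41.7-fold in sh1 and 61.7- to 65.5-fold in sh3, and ERBB3 and ERBB4 together were 0.0159% to 0.0483% of the transcripts of the 4 receptors, by FPKM.

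Of the ligands, NRG1 rose with both hairpins, about 3-fold with sh1. This gene, which gives many protein forms from several start sites, lies on chromosome 8 from 31639222 to 32774046 (plus strand, GRCh38, as are the other positions). It stood at 18.3, 18.2 and 21.3 CPM for shNC, 59.3, 60.8 and 56.3 in sh1 and 24.0, 25.3 and 24.0 in sh3. The 3 groups did not overlap, with sh1 far above sh3 and sh3 above shNC. The log2 change was 1.61 ± 0.07 with sh1 (3.05-fold, adjusted p = 8.3e-09, edgeR) and 0.34 ± 0.07 with sh3 (1.27-fold, adjusted p = 0.0020, range 2.0e-05 to 0.0496). Gene totals do not show which NRG1 forms were made.

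HBEGF, the heparin-binding ligand of EGFR and ERBB4 (chromosome 5, 140332843 to 140346603, minus strand), rose with sh1. Its level was 5.98, 6.59 and 6.89 CPM for shNC, 15.6, 15.1 and 15.5 in sh1 and 6.96, 8.08 and 7.55 in sh3. The sh1 libraries lay close together and above all others, and the lowest sh3 library lay just above the highest of shNC. The change was 1.25 ± 0.10 with sh1 (2.37-fold, adjusted p = 1.2e-06, edgeR) and 0.21 ± 0.10 with sh3 (1.16-fold, adjusted p = 0.13, range 0.079 to 0.35). Its window is the GC-rich one printed above, at 76.4% G and C.

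EREG, a ligand of EGFR and ERBB4 (chromosome 4, 74365145 to 74388749, plus strand), fell with sh1. It stood at 3.25, 3.80 and 3.47 CPM for shNC, 1.19, 1.52 and 1.47 in sh1 and 2.80, 4.49 and 4.48 in sh3. The sh1 values were below all others, and the sh3 values lay on both sides of shNC. The change was -1.33 ± 0.20 with sh1 (2.52-fold lower, adjusted p = 2.5e-04, edgeR) and 0.16 ± 0.20 with sh3 (adjusted p = 0.62).

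BTC, which also acts through EGFR and ERBB4 (chromosome 4, 74744759 to 74794523, minus strand), fell with sh1. Its level was 4.95, 5.34 and 5.35 CPM for shNC, 2.34, 3.38 and 2.1 in sh1 and 3.66, 3.53 and 4.27 in sh3. Both hairpins' libraries were below shNC without overlap, and sh1 lay below sh3. The change was -1.0 ± 0.18 with sh1 (2.00-fold lower, adjusted p = 8.4e-04, edgeR) and -0.45 ± 0.18 with sh3 (adjusted p = 0.088). The sh3 value passed in a fit of sh3 and shNC alone (adjusted p = 0.038) and without sh1 replicate 2 (adjusted p = 0.037, range 0.037 to 0.23).

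**Figure D3:**
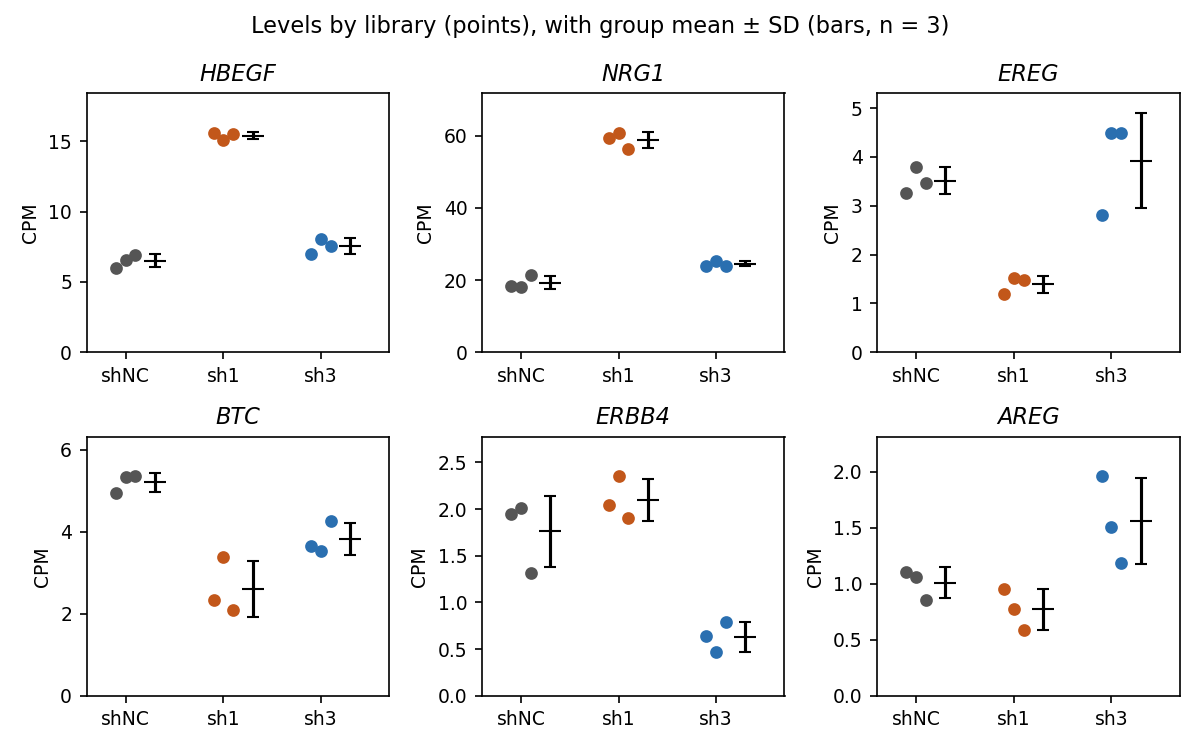
CPM (vertical axis, from 0) in each library for HBEGF, NRG1, EREG, BTC, ERBB4 and AREG, with group mean and SD (bars, n = 3). The sh1 libraries stand apart for HBEGF, NRG1 and EREG, and the sh3 libraries for ERBB4, at 0.466 to 0.785 CPM.

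AREG, a low-affinity ligand of EGFR (chromosome 4, 74445136 to 74455005, plus strand), was not called against shNC with either hairpin. It held 75, 71 and 50 counts in shNC, 58, 45 and 40 in sh1 and 134, 91 and 73 in sh3, or 1.01 ± 0.136, 0.773 ± 0.185 and 1.56 ± 0.386 CPM (SD over 3 libraries). The sh3 values, which were the most spread, lay above those of shNC, and sh1 overlapped shNC. The changes were -0.39 ± 0.27 and 0.62 ± 0.27 (SE, adjusted p = 0.30 and 0.11, edgeR).

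TGFA, the main ligand transcript (chromosome 2, 70447284 to 70553826, minus strand), fell slightly with sh1. It stood at 46.9, 45.4 and 45.8 CPM for shNC, 41.0, 38.4 and 39.8 in sh1 and 44.3, 43.9 and 47.9 in sh3. All sh1 values were below the others. The change was -0.21 ± 0.05 with sh1 (1.16-fold lower, adjusted p = 0.0036, edgeR) and -0.02 ± 0.05 with sh3 (adjusted p = 0.79). EPGN was too scarce to test, with 0, 4 and 4 counts in shNC, 8, 0 and 4 in sh1 and 4, 5 and 0 in sh3. For a count of 0 the exact 95% Poisson interval is 0 to 3.69 counts. A level of 3 counts equals 0.0439 to 0.0518 CPM in these libraries. Counts this low do not resolve small differences in EPGN.

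Added over the 7 ligands, FPKM was modestly higher in sh1 (15.5 to 16.4) than in shNC (14.4 to 14.5) and sh3 (14.2 to 15.3), without overlap. Without NRG1 the groups overlapped. The make-up of the sum differed more. The sum was 14.5 ± 0.0806 FPKM for shNC, 16.0 ± 0.449 in sh1 and 14.7 ± 0.565 in sh3 (SD over 3 libraries), and over the 6 ligands that bind EGFR, that is without NRG1, it was 13.6 ± 0.0437, 13.5 ± 0.370 and 13.7 ± 0.562. TGFA made up 59.1% to 61.6% of the 7-ligand sum in shNC, 44.1% to 46.8% in sh1 and 56.4% to 59.1% in sh3. HBEGF made up 12.9% to 14.6%, 28.6% to 29.9% and 15.0% to 17.0%, and NRG1 5.42% to 6.30%, 15.2% to 16.0% and 6.80% to 7.43%. BTC went the other way in sh1, from 12.0% to 12.9% in shNC to 4.54% to 7.20%. These shares are descriptions of transcripts per length, without a test, and not of released protein.

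**Figure D4:**
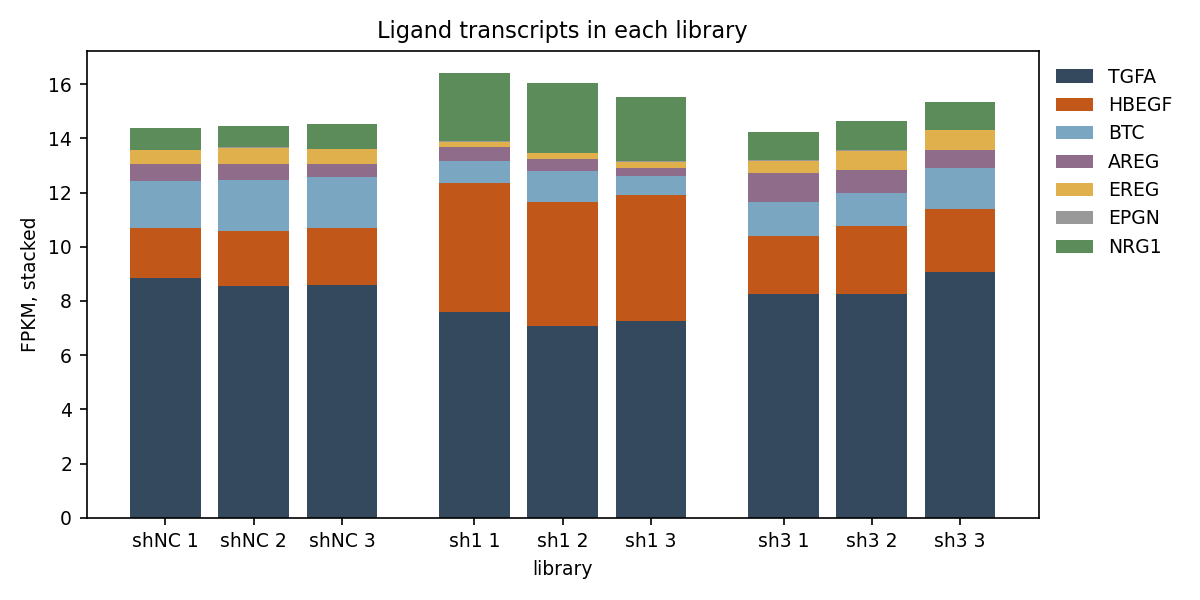
Stacked FPKM of the 7 ligands (vertical axis, from 0) in each of the 9 libraries. The bars reach 14.4 to 14.5 FPKM in shNC and 15.5 to 16.4 in sh1, where the HBEGF and NRG1 parts are the wider ones and the BTC part the narrower.

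The members on chromosome 4 lie together, a feature that their choice by name did not use. EPGN, EREG, AREG and BTC span 486054 bases, from 74308470 to 74794523, with gaps of 48355 bases from EPGN to EREG, 56386 from EREG to AREG and 289753 from AREG to BTC. EPGN, EREG and AREG are on the plus strand and BTC is on the minus strand. Of these neighbours EREG and BTC were lower with sh1, and AREG, between them, was at -0.39 ± 0.27 (SE). With sh3 none of the 3 tested genes of the cluster was called.

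Set against each other, the hairpins differed for 7 of 9 tested members, with 4 higher and 3 lower in sh3 than in sh1 (77.8%, where 12.9% of all genes were called higher and 13.0% lower, 25.9% in either direction, edgeR). NRG1, HBEGF and ERBB4 were lower in sh3, by log2 differences of -1.27 ± 0.06, -1.03 ± 0.10 and -1.73 ± 0.25 (SE, adjusted p = 1.3e-07, 1.5e-05 and 3.9e-04). EREG was higher at 1.49 ± 0.21, AREG at 1.01 ± 0.27, BTC at 0.55 ± 0.18 and TGFA at 0.19 ± 0.05 (adjusted p = 2.5e-04, 0.017, 0.043 and 0.012). The AREG call was lost without sh1 replicate 3 (adjusted p = 0.068) and without sh3 replicate 1 (adjusted p = 0.078, range 0.0097 to 0.078), the TGFA call without sh1 replicate 2 (adjusted p = 0.057, range 0.0040 to 0.057), and the BTC call in 11 of 16 alternatives (range 0.0062 to 0.16). Without overlap of libraries, 5 members lay higher and 3 lower in sh3 than in sh1, where 21.0% of all genes lay higher, 20.8% lower and 41.8% on either side. EGFR and ERBB3 differed by 0.09 ± 0.07 and 0.33 ± 0.21 (adjusted p = 0.40 and 0.30), and EGFR passed in a fit of sh3 and sh1 alone (adjusted p = 0.019) and without shNC replicate 3 (adjusted p = 0.025).

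The genes most like a member over the 9 libraries were sought for the 3 members that averaged at least 1 FPKM and changed most against shNC, NRG1, HBEGF and BTC. Likeness was the mean absolute difference in log2 CPM, each gene centred on its own shNC mean, among 10843 protein-coding genes. Closest to NRG1 were the matrix protease ADAMTS1 at 0.05, the keratin KRT80 at 0.07 and thrombospondin 1, THBS1, at 0.10. Their log2 changes with sh1 and sh3 were 1.59 and 0.34, 1.48 and 0.33, and 1.78 and 0.33. Closest to HBEGF were nucleoredoxin, NXN, at 0.06, the polyamine enzyme ODC1 at 0.06 and N-cadherin, CDH2, at 0.08, and closest to BTC were BEX4 at 0.11, KCTD12 at 0.12 and the transcription factor FOXO1 at 0.13.

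Around the members, 51 of 53 other genes of the pathway were tested. NRG3 was not among the deposited genes under that symbol, and the ubiquitin ligase gene CBLC held at most 4 counts in a library. With sh1 15 were higher and 16 lower, 60.8% of the list, against 38.7% of all tested genes. With sh3 12 were higher and 12 lower, 47.1% of the list, against 26.9% of all tested genes. Under library totals the sh3 counts were 9 and 14. The median absolute log2 changes of the list were small, 0.19 and 0.13, against 0.30 and 0.22 over all tested genes. In both comparisons 10 of 51 rose and 10 of 51 fell, where 19.1% of all tested genes were called in both in one direction. The other ligand genes tested, EGF, NRG2 and NRG4, were not called, and NRG2, another neuregulin, stood at 1.17 ± 0.0650 FPKM for shNC, 1.13 ± 0.133 in sh1 and 1.12 ± 0.131 in sh3 (SD over 3 libraries), above NRG1 in shNC.

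Of the 9 genes of ligand release, 2 were higher and 4 lower with each hairpin, 66.7% of the list, against 38.7% of all tested genes with sh1 and 26.9% with sh3. The median absolute log2 changes of this list were 0.20 and 0.31, against 0.30 and 0.22 over all tested genes. The ligand sheddase ADAM17 fell, averaging 68.1 ± 3.43 CPM for shNC, 55.5 ± 1.23 in sh1 and 57.9 ± 0.639 in sh3 (SD over 3 libraries), log2 changes of -0.30 ± 0.04 and -0.23 ± 0.04 (SE, adjusted p = 1.7e-04 and 0.0017, edgeR). ADAM10, the sheddase of BTC among others, gave -0.20 and -0.31. RHBDF2, an iRhom that escorts ADAM17 to the cell surface, rose, averaging 13.0 ± 1.93 CPM in the control and 23.9 ± 1.86 and 18.7 ± 2.39 with the hairpins. Its log2 changes were 0.87 ± 0.12 and 0.52 ± 0.12 (SE, adjusted p = 1.0e-04 and 0.0062, edgeR). The other iRhom gene listed, RHBDF1, fell, at -0.19 ± 0.05 and -0.17 ± 0.05 (SE, adjusted p = 0.0074 and 0.023, edgeR). The sh3 call of RHBDF1 was lost without shNC replicate 1 or sh3 replicate 1. In shNC RHBDF1 averaged 12.2 FPKM, against 1.70 for RHBDF2. The metalloprotease ADAM12, which can cleave HBEGF, rose, at 0.73 and 0.37.

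Among the 12 tested genes of receptor down-regulation, 5 rose and 2 fell with sh1 (58.3% of the list, against 38.7% of all genes), and 4 rose and 2 fell with sh3 (50.0%, against 26.9%). Some of these calls were near the threshold. With sh1 the 5 became 3 without shNC replicate 2 or 3 or sh1 replicate 2 or 3. With sh3 the 4 became 2 without shNC replicate 1 or sh3 replicate 2, and 1 without shNC replicate 2 or sh3 replicate 3, and the 2 that fell became 1 without shNC replicate 2 or sh3 replicate 2 or 3. The adaptor GRB10 rose, averaging 24.8 ± 1.82 CPM for shNC, 42.6 ± 1.01 in sh1 and 49.8 ± 2.69 in sh3 (SD over 3 libraries). ERRFI1, the feedback inhibitor of EGFR kinase, rose with sh1 at 0.23 ± 0.04 (SE, adjusted p = 5.0e-04, edgeR) and stood at 0.09 ± 0.04 with sh3 (adjusted p = 0.12). Of the 12 adaptors and enzymes 3 rose and 5 fell with sh1 (66.7%, against 38.7%). These counts became 2 and 4 without sh1 replicate 1, 2 or 3, with no filter on low counts, and with limma on FPKM. Without shNC replicate 3 they were 4 and 4. With sh3 0 passed upward and 3 downward (25.0%, against 26.9%, near the background), and the 3 became 1 without shNC replicate 1 or 3, sh1 replicate 1 or 3, or sh3 replicate 2 or 3, while without shNC replicate 2 the 0 became 1. In the RAS, ERK, AKT and STAT branch 5 and 6 of 14 rose and 4 and 3 fell with sh1 and sh3 (64.3% in each comparison, against 38.7% and 26.9%). The kinase AKT1 was at 0.41 and 0.41 and the transcription factor STAT3 at -0.46 and -0.30. AKT2 was lower with sh1, at -0.16 ± 0.03, and at -0.07 ± 0.03 with sh3 (SE, adjusted p = 0.0013 and 0.12, edgeR). Median absolute log2 changes were 0.20 and 0.13 for down-regulation, 0.19 and 0.08 for adaptors and enzymes and 0.16 and 0.17 for this branch. Over all tested genes they were 0.30 and 0.22.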

How the data were processed

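Total RNA was poly(A)-selected and made into dUTP-marked libraries, read in pairs, per the labels' protocols. The build GRCh38 and the tools HISAT2 2.2.1, cutadapt 1.9, edgeR, DESeq2 and StringTie 2.1.6 are listed in the submitters' processing notes, without roles. The annotation and the strandedness of counting were not given in the sources used here. Per the file headers, the authors deposited a table of counts, whole numbers for each gene and library, and of FPKM.

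Counts were tested with edgeR 4.0.16 in R 4.3.3 (filterByExpr with a minimum count of 10, TMM, glmQLFit, glmQLFTest, 1 mean per group, no block) over 21296 genes, two-sided, and adjusted by Benjamini-Hochberg over all of them. The fit was tested on simulated data. The SE is the absolute log2 change divided by the square root of F. No pair of replicates was as alike as repeat sequencing of 1 library would be (chi-square divided by its degrees of freedom, 8.90 to 18.9). The highest values, 16.9 and 18.9, were those of shNC replicate 3 against shNC replicates 1 and 2. Alternatives were DESeq2 1.42.0, library totals, no filter, limma 3.58.1 on log2(FPKM + 1) and log2(FPKM + 0.1), the replicate block, fits of 2 groups and leaving out each library.

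The members, lists and rules were chosen with earlier results of these data known. All members are named. Of the pathway list, the rule names the 6 genes whose lesser change was largest among those called the same way with sh1 and sh3, and also ERBB2, ADAM17, RHBDF2 and ERRFI1, and 1 of the 6 is not reported here. ADAM10, NRG2, CBLC, RHBDF1 and AKT2 were named after their values were seen.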

Additional observations from a re-analysis of the deposited data

Results flagged for a closer look

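For 7 members the change with sh3 differed from that with sh1, tested directly as sh3 against sh1 (edgeR). The log2 difference, sh3 minus sh1, was 1.49 for EREG, 1.01 for AREG, 0.55 for BTC and 0.19 for TGFA, and -1.03 for HBEGF, -1.27 for NRG1 and -1.73 for ERBB4. The adjusted p ran from 1.3e-07 for NRG1 to 0.043 for BTC. The calls of AREG, TGFA and BTC were lost in some alternatives, that of BTC in 11 of 16. All 3 sh3 values lay on that side of all 3 sh1 values for each of the 7, where 41.8% of all genes lay on either side. The 7 were picked by a test on these same libraries, so the lack of overlap adds no support.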

How the results depend on the processing

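Every member call against shNC held in all 16 alternatives, from DESeq2 to each left-out library. On log2(FPKM + 1), which understates low genes, the NRG1 and EREG changes with sh1 were 0.93 and -0.36, BTC -0.58 and ERBB4 with sh3 -0.11. Values near 0 changed sign: for sh3 against shNC, EGFR ran from -0.16 to 0.02 over the left-out libraries, ERBB3 from -0.20 to 0.09 (0.04 without shNC replicate 3) and TGFA from -0.06 to 0.0020. For sh1 against shNC, STXBP6 ran from -0.15, without sh1 replicate 3, to 2.60, without shNC replicate 3. For sh3 against sh1, AKT1 was -0.0018 (-0.01 to 0.0035 over the left-out libraries) and became 0.01 under library totals, 0.00062 with no filter, 0.0022, 0.0025 and 0.0035 without sh1 replicate 1, sh1 replicate 3 and sh3 replicate 1, and 0.03 with limma at either pseudocount. Members lower in sh3 than in shNC numbered 2 in the fit of these groups alone, and 1 to 2 without 1 library. Members higher in sh3 than in sh1 numbered 2 to 4 without 1 library, and pathway genes lower there 4 to 9, with 5 under no filter and 4 with limma at either pseudocount, against 8. The sh1 to shNC ratio of summed ligand FPKM was 1.11 for 7 ligands, 0.991 for the 6 that bind EGFR and 1.50 without TGFA, and for sh3 1.02 and, without TGFA, 1.07. In CPM the sh1 to shNC ratio was 0.882 for EGFR, against 0.863 in FPKM, and 2.37 for HBEGF, against 2.32. The cause of these moves was not tested.

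Libraries with the same replicate number did not deviate together (r = -0.0319 to 0.0207 across genes), and 1 of 9 correlated best with its own number. With a replicate block 4117 genes were higher and 3834 lower in sh1, against 4230 and 4013, and among the members it ended 1 call, that of BTC in sh3 against sh1 (0.57, adjusted p = 0.055). Depth limits EPGN, and, at 28 to 136 counts per library, ERBB4, ERBB3 and AREG.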
